A study of Mus musculus with 50 samples.

Results

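Mouse motor neurons were followed in the spinal cord and in a dish, and the comparison described here asks which genes and functions moved one way as the cells matured in the animal and the other way as they matured in culture. It was drawn from 13 RNA-seq libraries of 50 libraries in the series, in which 28 measured RNA. In tissue, motor neurons were taken at embryonic stages E10.5 (3 libraries) and E13.5 (2 libraries) and at postnatal day 21 (P21, 3 libraries). In culture, motor neurons made from mouse stem cells were taken from embryoid bodies at the start (DIV0, 2 libraries) and after 28 days in vitro (DIV28, 3 libraries). For each gene the change in culture, DIV28 minus DIV0, was subtracted from the change in tissue, P21 minus E10.5, and a gene was called opposite when each change reached 2-fold and an unadjusted p below 0.001, the signs differed, and the difference of changes passed an adjusted p of 0.05.

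All cells were of C57BL/6 background and untreated. The E10.5 libraries came from whole cells of HB9-GFP embryos, sorted by their fluorescence, and the E13.5 and P21 libraries from nuclei of Chat-Cre;SUN1-GFP animals, captured from the brachial and lumbar cord of pooled animals of both sexes. Cre driven from the Chat locus marks every cholinergic cell with a green nuclear envelope, not motor neurons alone. The cultured cells were derived from a stem cell line that carried the same Chat-Cre;SUN1-GFP alleles, their RNA was also nuclear, and those of DIV28 had grown on cortical astrocytes with neurotrophic factors. E10.5 was thus the only whole-cell stage, and age and isolation cannot be told apart in a change from E10.5. Each gene was therefore also tested with E13.5 as the start, and most of what follows is about genes that were opposite from both starts. The study reports less pure nuclei at E13.5 than at P21, with some contamination from blood vessels. Age and purity thus cannot be told apart in a change from E13.5. The labels number the replicates without saying whether they came from separate litters or cultures, so p-values measure the spread between these libraries.

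Motor neurons leave the cell cycle before they extend axons to muscle, and over the weeks after birth they take on the channels, receptors and synaptic proteins of adult cells while genes for growth and biosynthesis decline. Acetylcholine, made by the enzyme Chat, is their transmitter at the muscle. Cultured motor neurons grow new axons after plating and lack muscle, myelinating glia and descending input.

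The library titled as DIV0 replicate 3 was used as DIV28 replicate 3, which is how the study lists its replicates. Its log expression correlated across genes at r = 0.941 with either of the other DIV28 libraries and at 0.734 and 0.737 with the DIV0 libraries. Among the genes described below, this library was the lowest of the DIV28 libraries for 158 of 205 genes that rose in culture and the highest for 49 of 77 genes that fell, so it lay nearer to DIV0 than the others did. Without it the counts of opposite genes were 233 and 398, against 192 and 285 with it, and 167 and 269 of the genes were shared. Total counts ranged from 3496817 to 21823500, with a median of 5217950. A noncoding gene, Gm26917, took 15.5% to 16.2% of the counts at E10.5, and Malat1 took 20.2% in DIV28 replicate 2.

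The defining genes of motor neurons were present in all 13 libraries. The summed level of 8 motor neuron markers was 3821 to 6220 normalised counts at E10.5, 2319 to 4033 at E13.5, 6195 to 6809 at P21, 12900 to 12930 at DIV0 and 7080 to 10980 at DIV28. Other cells were present too. The sum of 10 oligodendrocyte markers was 7536 to 10160 at P21, against 609 to 824 at E10.5, 348 to 359 at DIV0 and 81.5 to 97.9 at DIV28, where Mobp, Sox10, Mag and Mog were at 0. At E13.5 the endothelial sum was 15940 to 30550 and the fibroblast and pericyte sum 4920 to 6443, against 55.7 to 125 and 122 to 493 at P21. Erythroid markers summed to 18220 to 21450 at E13.5, against 1.48 to 15.6 at E10.5 and 231 to 437 at P21. The sum of the inhibitory interneuron markers was 970 to 1335 at P21, 225 to 959 at E10.5, 464 to 523 at DIV0 and 410 to 654 at DIV28. In bulk samples such as these, fewer cells of a type and less RNA per cell cannot be told apart, and the part of these cells in the results was not tested unless a value below bears on it.

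Genes that changed in both systems moved more often in the same direction than in opposite ones. Of 14889 genes tested, 4541 (30.5%) rose and 4276 (28.7%) fell in tissue from E10.5, while 2028 (13.6%) rose and 1446 (9.71%) fell in culture. From E13.5 to P21, 2864 (19.2%) rose and 3906 (26.2%) fell. Of 2339 genes past the limits in both systems, 1102 rose in both, 760 fell in both, and 477 (20.4%) moved in opposite directions. Across genes, which are not independent replicates, the change in culture correlated with the change in tissue at r = 0.38 from E10.5 and 0.18 from E13.5. The difference of changes was higher in tissue for 4378 genes (29.4%) and higher in culture for 4593 (30.8%), with a median over all genes of -0.10 on the log2 scale. With median-of-ratios scaling this median was 0.06, and differences below are to be read against that shift.

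Opposite changes ran in both directions. From E10.5, 192 genes (1.29% of those tested) rose in tissue and fell in culture, and 285 (1.91%) fell in tissue and rose in culture. When E13.5 was required as a second start, 77 (0.517%) and 205 (1.38%) remained. In every one of these 282 genes the libraries of start and end did not overlap in either system. The limits were set on these same libraries and make such separation likely, so it is not added support. The 77 genes had a median log2 change of 2.90 from E10.5, 2.33 from E13.5 and -2.10 in culture. The 205 genes had medians of -2.28, -2.74 and 1.83, against 0.04, -0.08 and 0.11 over all tested genes. The counts depended on the DIV0 libraries, of which only 2 were at hand: without DIV0 replicate 1 they were 43 and 82, and without DIV0 replicate 2 they were 44 and 89, in fits that take the remaining library to vary like those of the other groups. The first count was also 41 without E13.5 replicate 2 and 49 without P21 replicate 1 or 2, and the second 129 without DIV28 replicate 2. With DESeq2 the counts were 153 and 246. In the main analysis and after each of the 13 libraries was left out in turn, 20 and 42 genes were opposite from both starts every time. Where a single gene is said below to keep or lose its call without a library, the call is that from E10.5, unless both starts are named.

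**Figure D1:**
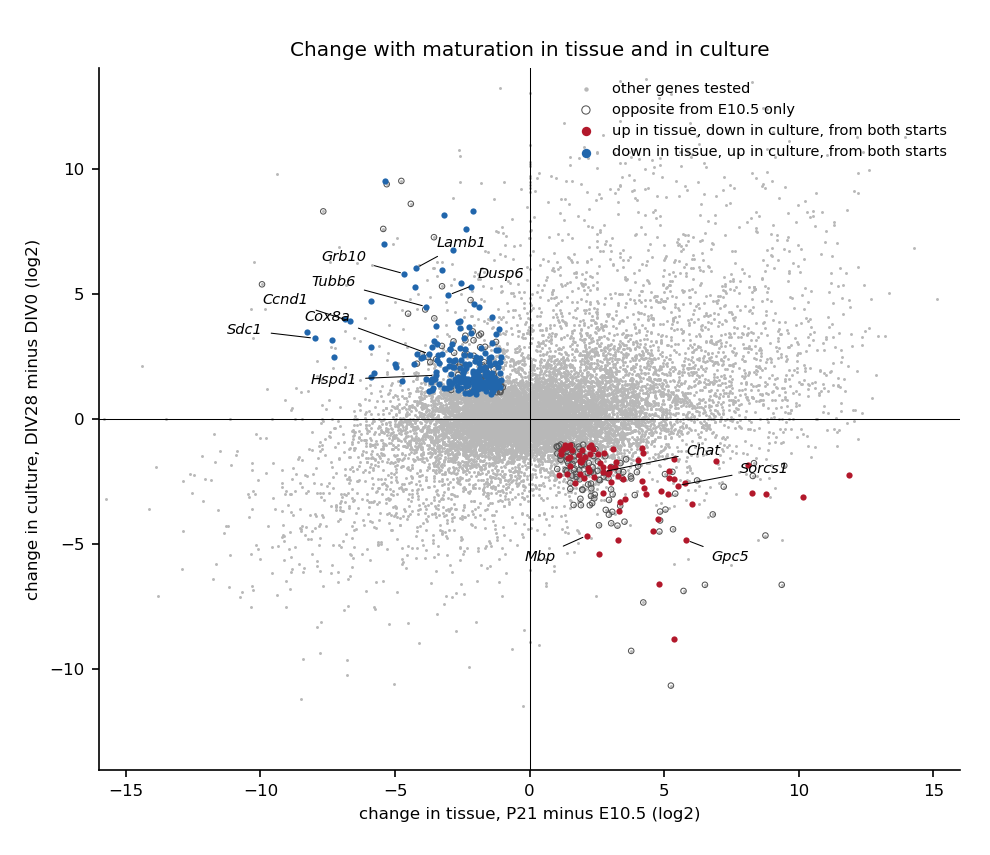
Each point is 1 of the 14889 genes tested, with its log2 change from E10.5 to P21 in tissue on the x axis and from DIV0 to DIV28 in culture on the y axis; coloured points are the genes opposite from both starts. The 77 genes that rose in tissue and fell in culture lie at the lower right and the 205 of the other direction at the upper left.

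Tissue and culture differed already at the start. There, the levels of the 77 genes were higher in DIV0 than in E10.5 cells by a median of 2.91 (log2), and 63 of them differed past the limits, which 3199 genes (21.5%) did in that direction. At the end they were lower in DIV28 than at P21 by a median log2 difference of -2.12, past the limits in 58, against 1434 of all tested genes (9.63%). In 44 of the 77 genes the order of tissue and culture was exchanged between start and end, in 18 a gap at the start closed, and in 14 a gap opened. Gm22973, the remaining gene, stayed higher in culture. The 205 genes mirrored this, with DIV0 below E10.5 by a median of -2.62 (183 genes past the limits, against 3394 or 22.8% of all) and DIV28 above P21 by a median of 1.53 (153 genes, against 1668 or 11.2%). Here the order was exchanged for 131 genes, 52 gaps closed and 22 opened. With E13.5 as the start, the order was exchanged for 28 of 77 and 138 of 205. Start and end levels come from the same libraries as the changes and describe them rather than add evidence.

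The leading genes that rose in tissue and fell in culture held Chat itself, adhesion proteins and guidance cues. Chat (chr14:32408203-32465989, - strand, GRCm38) is on the list of motor neuron markers. Its normalised counts were 115, 88.2 and 184 at E10.5, 238 and 121 at E13.5, 980, 847 and 927 at P21, 2539 and 1758 at DIV0, and 603, 419 and 409 at DIV28. It rose 6.63-fold in tissue and fell 4.33-fold in culture, and the difference of changes was 4.84 ± 0.45 (log2 ± SE, edgeR's quasi-likelihood test, Benjamini-Hochberg adjusted p = 1.41e-06). All DIV28 libraries still lay above every E10.5 and E13.5 library. Compared with P21, DIV28 was lower by 0.90 on the log2 scale, a difference inside the 2-fold limit. The gene of the vesicular acetylcholine transporter, Slc18a3, lies within Chat on the same strand, so that counting could split reads between them, and it was not opposite (tissue -1.22 ± 0.39, culture -1.02 ± 0.42). Of the 8 cholinergic genes tested, Chat was the only opposite member. The choline transporter Slc5a7 read 15.6 to 52.4 at E10.5, 1306 to 1438 at P21, 326 to 404 at DIV0 and 769 to 809 at DIV28, and rose past the limits in tissue alone.

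Adhesion molecules and receptors of long genes followed the same course. Pcdh9, a protocadherin of neuronal contacts (chr14:93013410-93890679, - strand), read 141, 77.8 and 113 at E10.5, 4006, 4493 and 3999 at P21, 3675 and 4280 at DIV0 and 305, 442 and 692 at DIV28. The DIV0 libraries thus overlapped those of P21. It rose 35.1-fold and then, in culture, fell 7.96-fold, with a difference of changes of 8.12 ± 0.51. Sorcs1, a sorting receptor of the Vps10 family (chr19:50143299-50678646, - strand), read 28.6, 17.8 and 28.4 at E10.5, 280 and 138 at E13.5, 1177, 1245 and 1236 at P21, 468 and 244 at DIV0 and 32.9, 57.7 and 69.4 at DIV28. Its difference of changes was 8.16 ± 0.51, from 45.4-fold up and 6.32-fold down.

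Ntng1, a netrin-like guidance protein anchored to the membrane, read 16.3 to 31.6 at E10.5, 203 to 402 at E13.5, 1158 to 1514 at P21, 487 to 596 at DIV0 and 28.9 to 126 at DIV28. Epha10, an ephrin receptor, read 39.3 to 138, 33.6 to 64.3, 447 to 646, 771 to 831 and 113 to 184 in the same order. Kirrel3, an immunoglobulin-type synaptic adhesion protein, fell in culture from 103 and 38.4 to 1.3, 2.9 and 1.7, while it stood at 199 to 261 at P21. Their differences of changes were 8.35 for Ntng1, 4.70 for Epha10 and 8.14 for Kirrel3, and their calls from E10.5 were kept in every fit run. The call from both starts was kept for Epha10 after each library was left out, whereas Ntng1 and Kirrel3 lost it without E13.5 replicate 2 or any P21 library. Pcdh9, Kirrel3, Dpyd and Zbtb20 overlap 4, 2, 1 and 5 other annotated genes on the same strand, between which counting could split reads.

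Matrix and metabolic genes completed the class. Adamts2, a protease that trims collagen precursors (chr11:50602084-50807573, + strand), read 2.2 to 9.7 at E10.5, 10.1 to 16.6 at E13.5, 142 to 197 at P21, 80.8 and 40.1 at DIV0 and 2.2 to 7.9 at DIV28, a difference of changes of 8.79 ± 0.79. Gpc5, a membrane heparan sulfate proteoglycan, rose 56.4-fold in tissue to 168 to 263, and 30 counts at DIV0 met 3 counts at DIV28, a ratio of 37.4 with an exact 95% counting interval of 11.6 to 192. Its call was lost without DIV0 replicate 1 or DIV28 replicate 2, and that from both starts in 9 of 13 fits without 1 library, all but those without E10.5 replicate 2 or 3, E13.5 replicate 1 or DIV28 replicate 3. Dpyd, which breaks down pyrimidines, rose 7.81-fold and fell 4.36-fold, a call lost without DIV0 replicate 2. Zbtb20, a zinc finger repressor, rose 4.09-fold to between 1669 and 2164 and fell 5.19-fold in culture from 1481 and 1397 to between 151 and 338, and without E13.5 replicate 2 it was opposite from E10.5 alone.

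Mbp, a protein of myelin whose locus also encodes Golli proteins made in neurons, read 216 to 473 at E10.5, 44.8 to 51.5 at E13.5, 1293 to 1822 at P21, 249 to 270 at DIV0 and 6.9 to 12.5 at DIV28. The difference of changes was 6.78 ± 0.44 (edgeR adjusted p = 1.78e-07). It was the only one of 10 oligodendrocyte markers that was opposite. The marker sum given above rose at P21 and fell in culture, but Mbp is part of that sum and made up most of it at DIV0. Past the limits, 8 of the 10 markers rose and 1 fell in tissue from E10.5, and in culture 1 rose and 2 fell.

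**Figure D2:**
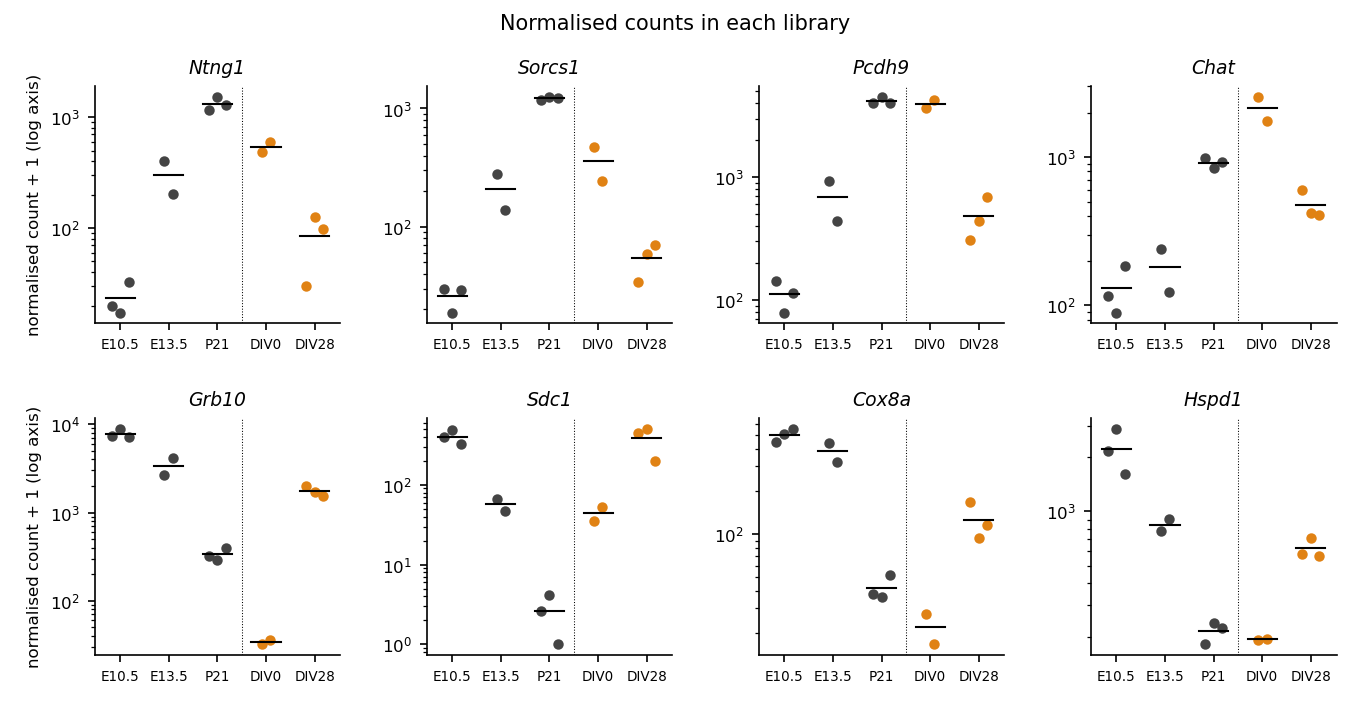
Normalised counts plus 1, on a log axis, of 8 genes named in the text in each of the 13 libraries, with points for libraries in replicate order and lines for group means. Ntng1, Sorcs1, Pcdh9 and Chat rise from E10.5 to P21 and fall from DIV0 to DIV28, and Grb10, Sdc1, Cox8a and Hspd1 do the reverse. Start and end do not overlap, as in all genes opposite from both starts.

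The leading genes that fell in tissue and rose in culture held an adaptor of growth factor receptors, G1 phase genes and transcription factors. Grb10, an adaptor that restrains insulin and growth factor receptors (chr11:11930508-12038683, - strand), read 7449, 8881 and 7169 at E10.5, 2644 and 4117 at E13.5, 318, 290 and 398 at P21, 30.8 and 34.9 at DIV0, and 1991, 1724 and 1530 at DIV28. Culture started far below tissue and ended above it. It fell 25.1-fold in tissue (log2 change -4.65 ± 0.26) and rose by 5.80 ± 0.35 in culture, and the difference of changes was -10.45 ± 0.44 (edgeR adjusted p = 1.64e-08). Cdk6, a kinase of the G1 phase, read 189 to 554 at E10.5, 18.9 to 22.3 at P21, 2.9 and 3.5 at DIV0 and 94.6 to 171 at DIV28. Ccnd1, cyclin D1, its partner, read 1689 to 1827, then 12.7 to 23.6, and in culture 4.4 and 3.5 followed by 47.7 to 69.8, a difference of changes of -10.60.

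Most genes of the cell cycle did not follow Ccnd1 and Cdk6. Of the 42 genes tested from the cell cycle list, which does not hold Cdk6, 41 fell in tissue from E10.5 and 39 from E13.5, 16 fell and 2 rose in culture, and Ccnd1 was the one opposite member. The list medians were -6.39, -5.11 and -1.48 for the changes from E10.5, from E13.5 and in culture. Progenitor markers summed to 10290 to 11320 at E10.5 and 14980 to 23240 at E13.5, against 122 to 178 at P21, and fell in culture from between 1737 and 1979 to between 993 and 1026. The call of Id1, an inhibitor of differentiation factors, with 237 to 364 at E10.5, 1.6 to 3.2 at P21, 1.5 and 7.0 at DIV0 and 23.4 to 118 at DIV28, was lost without DIV0 replicate 1. The transcription factor Zic2, at 74.6 to 167, then 0.0 to 3.2, rested on 2 counts at DIV0 against 179 at DIV28, a ratio of 23.9 with a counting interval of 6.53 to 199, and its call was lost without DIV0 replicate 2.

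Surface and matrix genes rose from low levels in culture. Lamb1, a laminin chain (chr12:31265234-31329644, + strand), read 56.8 to 119 at E10.5, 1534 and 2746 at E13.5, 4.7 to 6.4 at P21, 5.9 and 0.0 at DIV0 and 161 to 228 at DIV28, a difference of changes of -10.25 ± 0.82. Igfbp3, which binds insulin-like growth factors (chr11:7206086-7213923, - strand), read 31.1 to 34.9, 186 and 395, 1.6 to 6.4, 1.5 and 3.5, and 98.7 to 191 in the same order. The 3 counts at DIV0 against 705 at DIV28 gave a ratio of 62.8 with a counting interval of 21.4 to 305. Sdc1, the heparan sulfate proteoglycan syndecan-1 (chr12:8771323-8793715, + strand), read 328 to 484 at E10.5, 45.5 and 66.3 at E13.5, 0.0 to 3.2 at P21, 33.8 and 52.3 at DIV0 and 195 to 500 at DIV28. With only 3 counts at P21 against 1535 at E10.5, the ratio in tissue was 254, with an interval of 86.8 to 1230. Lamb1 and Igfbp3 read highest at E13.5, the age of the endothelial and fibroblast signal given above, whose part in their tissue change was not tested.

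Ccn1, a secreted matrix protein, stood at 132 to 268 at E10.5, 61.4 and 70.8 at E13.5, 1 count in the P21 libraries, 20.6 and 5.2 at DIV0 and 107 to 206 at DIV28. Tgif1, a repressor of transforming growth factor signals, had 2 counts at P21 against 682 at E10.5 and rose 8.99-fold in culture. Ezr, ezrin, which ties actin to the membrane, fell 11.2-fold in tissue and rose 13-fold in culture. The fibroblast and pericyte markers summed to 7.34 to 12.2 at DIV0, with 6 of 10 at 0, and to 24.3 to 515 at DIV28, with none at 0, and none of the 10 was opposite. The endothelial sum was 11.8 to 22.7 at DIV0, with 7 markers at 0, and 166 to 276 at DIV28. These sums were higher at DIV28 along with the surface and matrix genes, and their part in that rise was not tested. The astrocyte sum was 738 to 797 at DIV0 and 774 to 831 at DIV28. Of 40 matrix receptor genes tested, 4 were opposite, all downward in tissue (Lamb1 and the integrin Itgb1 from both starts, Lama5 and Itgb8 from E10.5 alone). None of 34 collagen genes was opposite, against 1.29% (up in tissue) and 1.91% (down) of all genes tested.

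The largest opposite group by count was that of energy metabolism. Of 77 nuclear-encoded subunits of the respiratory chain tested, 58 fell in tissue from E10.5 and 69 from E13.5 and none rose, while in culture 27 rose and none fell. Of these, 22 were opposite and 21 from both starts, against 1.91% and 1.38% of all genes. They came from complex I (Ndufa2, Ndufa4, Ndufa8, Ndufa11, Ndufb3, Ndufb9, Ndufc2, Ndufs5 and Ndufv2), complex III (Uqcrc1, Uqcrfs1, Uqcrq and Uqcr11), complex IV (Cox4i1, Cox5b, Cox7b and Cox8a) and ATP synthase (Atp5a1, Atp5d, Atp5h and Atp5pb, with Atp5g1 from E10.5 alone). The list medians were -1.92 from E10.5, -2.56 from E13.5 and 1.01 in culture, and 68 of the 77 genes had a difference of changes higher in culture, against 30.8% of all genes. The count of 22 was 5 without DIV0 replicate 1, 10 without DIV0 replicate 2, 13 without DIV28 replicate 2 and 30 without DIV28 replicate 3, whereas the sign of the median held in every fit.

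Cox8a, a small subunit of cytochrome c oxidase (chr19:7215153-7217616, - strand), was opposite from both starts after each library was left out, as were Atp5d, Cox7b and Uqcrc1. It read 447, 505 and 550 normalised counts at E10.5, 441 and 324 at E13.5, 36.6, 35.1 and 50.4 at P21, 26.4 and 15.7 at DIV0 and 168, 92.4 and 115 at DIV28. The embryonic libraries were the highest at either age, P21 and DIV0 the lowest, and DIV28 lay between. The tissue change was -3.72 ± 0.28 and the culture change 2.59 ± 0.36, which gave a difference of -6.31 ± 0.46 (edgeR adjusted p = 3.18e-07). Ndufb3 of complex I read 68.7 to 102, 102 and 125, 6.3 to 14.4, 4.4 and 5.2, and 19.2 to 38.7 in that order, and lost its call without either DIV0 library or DIV28 replicate 2.

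The transcripts made inside mitochondria moved with them from E10.5 and less clearly from E13.5. Of 13 tested, 10 fell from E10.5, 3 fell from E13.5 and 7 rose in culture. The 7 opposite genes were mt-Co1, mt-Nd5 and mt-Nd6 from both starts and mt-Nd1, mt-Nd2, mt-Nd4 and mt-Cytb from E10.5 alone. Over all genes tested 1.91% were opposite in this direction from E10.5 and 1.38% from both starts. mt-Co1, a core subunit of cytochrome c oxidase, read 11050 to 12128 at E10.5, 1513 and 1658 at E13.5, 425 to 844 at P21, 155 and 194 at DIV0, and 863 to 1087 at DIV28. Without E13.5 replicate 1 it was opposite from E10.5 alone. mt-Nd1 fell 14.7-fold from whole cells of E10.5 and 2.42-fold from nuclei of E13.5, the latter not past the limits. Mitochondrial transcripts are made outside the nucleus. The share of counts on all mitochondrially encoded genes, ribosomal and transfer RNAs included, was 0.42% to 0.76% in the embryo and 0.08% to 0.27% at P21. In culture it was 0.20% at DIV0 and 0.21% to 0.26% at DIV28, a smaller rise than the median log2 change of 2.915 of the 13 transcripts. Without DIV0 replicate 1 or 2 the count of 7 was 3.

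Glycolysis did not move as a block, although by the difference of changes most of its genes leaned the way of the respiratory chain. Of 19 enzymes tested, 11 fell and 4 rose in tissue from E10.5, and in culture 5 rose and 3 fell. The difference of changes was higher in culture for 13 of them and higher in tissue for 3, against 30.8% and 29.4% of all genes. The glycolysis list had medians of -2.67 from E10.5, -0.9974 from E13.5, 0.47 in culture and -2.88 for the difference. Its opposite genes ran the other way from the respiratory chain: Gpi1, which isomerises glucose 6-phosphate, read 1893 to 2790 at E10.5, 1408 to 1412 at E13.5, 4062 to 6559 at P21, 9997 and 11784 at DIV0 and 1778 to 2543 at DIV28. Its call rested on a small change, 2.11-fold in tissue, and was lost without either DIV0 library, E10.5 replicate 1 or 2, or P21 replicate 1 or 2. Pfkp, the platelet-type phosphofructokinase, was opposite from E10.5 (76.3 to 148, then 4001 to 4182 at P21), yet had already reached 2998 and 5679 at E13.5.

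**Figure D3:**
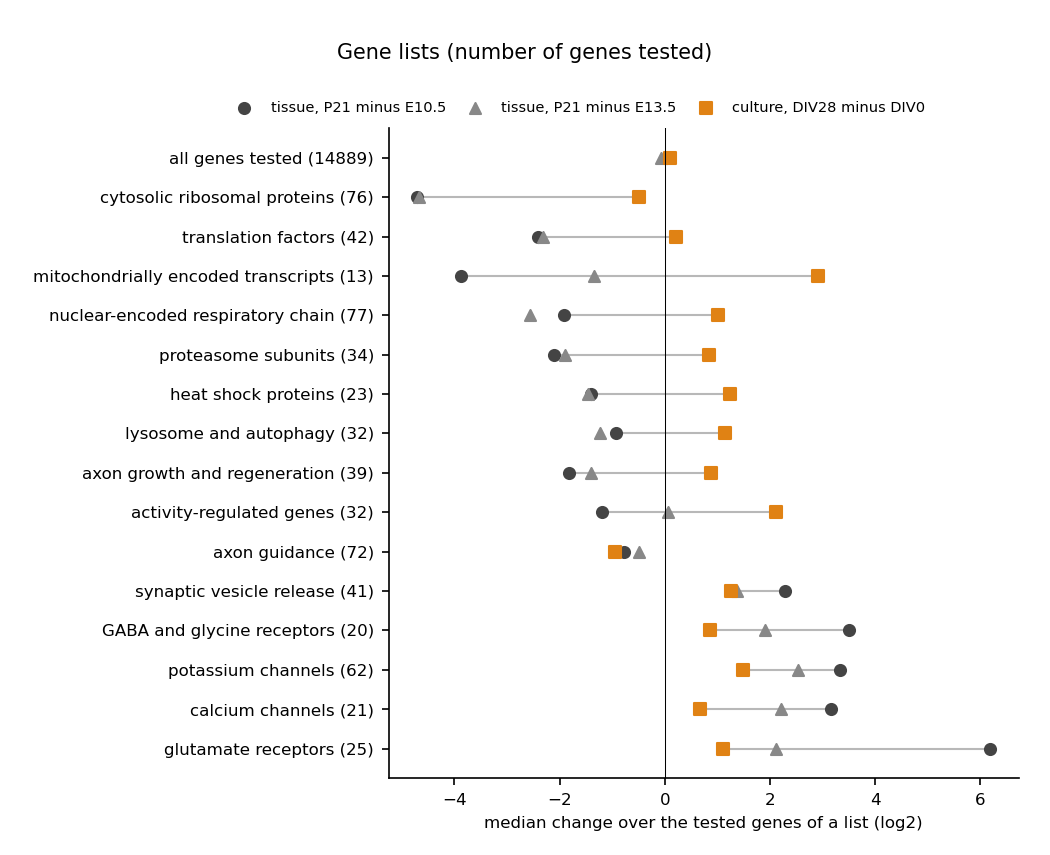
Median log2 change of the genes of 15 functional lists and of all genes tested, as circles for P21 minus E10.5, triangles for P21 minus E13.5 and squares for DIV28 minus DIV0. Respiratory chain, proteasome and heat shock genes have medians below 0 in tissue and above 0 in culture, while channel and receptor lists have medians above 0 in both.

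Protein turnover genes followed the respiratory chain. Of 34 proteasome subunits tested, 27 fell in tissue from E10.5, 28 from E13.5, and 11 rose in culture, and none moved past the limits the other way. From both starts 9 members were opposite, against 1.38% of all genes tested. They were Psma2, Psma4 and Psma5 of the core, and Psmc1, Psmc3, Psmc5, Psmd2, Psmd12 and Psmd14 of the cap. Psmd2, the largest of these by difference, read 1854 to 2019 at E10.5, 762 and 889 at E13.5, 344 to 362 at P21, 264 and 272 at DIV0 and 418 to 958 at DIV28, a difference of changes of -4.04 ± 0.40. The count of 9 fell to 0 and 1 without DIV0 replicate 1 and 2, to 5 without DIV28 replicate 1 and to 2 without DIV28 replicate 2. The list median difference was -3.03, and 31 of 34 genes were higher in culture by the test of the difference, against 30.8%. Psmd2 lost its call without either DIV0 library or DIV28 replicate 2, and that from both starts also without E13.5 replicate 2 or any P21 library.

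Chaperones joined in part. Of 23 heat shock genes, Hspa8, Hspa9, Hsp90aa1 and Hspd1 were opposite from both starts, and 16 were higher in culture by the difference. The shares over all genes tested were 1.38% and 30.8%. Hspd1, the chaperonin of the mitochondrial matrix, read 1612 to 2871 at E10.5, 779 and 908 at E13.5, 181 to 238 at P21, 192 and 195 at DIV0, and 567 to 714 at DIV28. It fell 11.2-fold, rose 3.35-fold and kept its call in every fit, with a difference of -5.23 ± 0.37. Hspa8, the constitutive cytosolic partner, read 10509 to 12172, 9993 and 12109, 1650 to 2720, 2123 and 2454, and 4628 to 6192, and lost its call without DIV0 replicate 1, DIV0 replicate 2 or DIV28 replicate 2. The count of 4 fell to 1 in each of those fits and was 6 without DIV28 replicate 3. All 8 subunits of the CCT chaperonin fell in tissue, and none passed the limits in culture.

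Ribosomes were different. Of 76 cytosolic ribosomal proteins, 74 fell in tissue from E10.5 and 76 from E13.5, with medians of -4.71 and -4.67, while in culture 4 fell and none rose, with a median of -0.50. None was opposite. Among 42 translation factors 34 fell in tissue and 5 rose in culture, and Eif1a, Eif1ax, Eif3g and Eif5a were opposite. Eif1ax, an initiation factor, read 441 to 499 at E10.5, 437 and 440 at E13.5, 126 to 155 at P21, 92.4 and 107 at DIV0, and 216 to 266 at DIV28, and its call held in every fit. The count of 4 was 2, 1, 2 and 2 without DIV0 replicate 1, DIV0 replicate 2, DIV28 replicate 1 and DIV28 replicate 2 and 8 without DIV28 replicate 3.

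Lysosome genes were opposite in 5 of 32 cases, with Ctsl, Lamp1 and Map1lc3a from both starts and Ctsd and Psap from E10.5 alone. All 5 fell in tissue and rose in culture, as did 1.91% of all genes tested. Ctsl, cathepsin L, read 457 to 504 at E10.5, 386 and 444 at E13.5, 57.4 to 101 at P21, 178 and 202 at DIV0, and 514 to 1027 at DIV28, and DIV28 was the highest group. The difference of changes was -4.88 ± 0.42 (edgeR adjusted p = 8.17e-07). The count of 5 was 2 without either DIV0 library or DIV28 replicate 2, 3 without E10.5 replicate 1 or any P21 library, and 8 without DIV28 replicate 3.

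Some axon growth and cytoskeleton genes rose in culture. Over all genes tested, 1.91% fell in tissue from E10.5 and rose in culture past the limits. Of 39 axon growth and regeneration genes, 22 fell in tissue and 14 rose in culture, and 5 were opposite: the tubulins Tubb3 and Tubb6, the transcription factor Jun and Gadd45a from both starts, and Socs3 from E10.5 alone. Tubb6 read 63.0 to 83.0 at E10.5, 212 and 405 at E13.5, 1.6 to 9.6 at P21, 22 and 5.2 at DIV0 and 203 to 357 at DIV28, so that DIV28 overlapped E13.5. Its difference of changes was -8.32 ± 0.78. Tubb3, the neuronal beta-tubulin, read 2784 to 9424, 1069 and 2123, 342 to 406, 496 and 651, and 1472 to 3800, and lost its call without any 1 of 4 libraries (both of DIV0, DIV28 replicates 1 and 2), and that from both starts also without E13.5 replicate 1 or any P21 library. Tubb4b, on the list of axon structure genes, fell 5.27-fold, rose 6.90-fold and kept its call throughout. Socs3, which damps cytokine signals, was at 63.3 to 96.3 at E10.5, 7.8 and 9.2 at E13.5, 4.7 to 12.7 at P21, 13.2 and 22.7 at DIV0 and 519 to 745 at DIV28, where it rose 39.4-fold. The count of 5 was 3 without DIV0 replicate 2 or DIV28 replicate 2.

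Genes that respond to activity and growth factors were opposite in 7 of 32 cases, with Jun, Dusp6 and Ier5 from both starts and Nptx2, Dusp1, Dusp5 and Gadd45g from E10.5 alone. In culture 17 of the 32 rose and none fell, and the list medians were -1.19 from E10.5, 0.06 from E13.5 and 2.12 in culture. Dusp6, a phosphatase that acts on ERK, read 100 to 152 at E10.5, 208 and 498 at E13.5, 14.2 to 19.1 at P21, 15.7 and 19.1 at DIV0, and 405 to 648 at DIV28. P21 and DIV0 thus overlapped while DIV28 exceeded E10.5, and the difference of changes was -7.97 ± 0.59 (edgeR adjusted p = 3.72e-07). Ier5, an immediate early gene, read 213 to 282, 186 and 220, 3.1 to 6.4, 33.1 and 41.1, and 101 to 138, and lost its call without DIV0 replicate 2. Without that library 4 of the 32 genes were opposite. Jun was counted in the growth list as well. The share of all genes tested that were opposite in this direction was 1.91% from E10.5 and 1.38% from both starts.

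B2m, the light chain of MHC class I, was the only opposite member among 17 genes of its list, against 1.91% of all genes. It read 54.3 to 76.3 at E10.5, 204 and 324 at E13.5, 4.8 to 18.9 at P21, 5.2 and 5.9 at DIV0, and 47.9 to 105 at DIV28. The difference of changes was -6.54 ± 0.76, in a call that every fit kept.

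Most genes of ion channels and of amino acid receptors rose in tissue, and fewer of them rose in culture. Over all genes tested 30.5% rose in tissue from E10.5 and 13.6% in culture, and the shares in these lists were higher in both systems. A few members were opposite, against 1.29% of all genes that rose in tissue and fell in culture. Of 62 potassium channel genes tested, 42 rose in tissue and 22 in culture, and 34 had a difference of changes higher in tissue, against 29.4% of all genes. The opposite members were the accessory subunits Kcnab3 and Kcnip1. Kcnab3 read 6.7 to 15.5 at E10.5, 17.5 and 23.4 at E13.5, 102 to 145 at P21, 20.6 and 27.9 at DIV0 and 1.5 to 3.3 at DIV28, a difference of 6.66 ± 0.67. It kept its call from E10.5 in every fit and lost that from both starts without E13.5 replicate 2. Kcnip1 rose 40.7-fold in tissue and fell 3.04-fold in culture, close to the limit, and lost its call in 10 of 13 fits without 1 library, all but those without E10.5 replicate 2 or 3 or DIV28 replicate 3.

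Of 21 calcium channel genes, 14 rose in tissue, 6 rose and 4 fell in culture, and Cacna1g and Cacna2d2 were opposite. Cacna1g, a low-voltage-activated T-type channel, read 354 to 681 at E10.5, 204 and 304 at E13.5, 1253 to 1697 at P21, 1294 and 1387 at DIV0, and 401 to 490 at DIV28. DIV0 lay within the range of P21 and DIV28 within that of E10.5, with a difference of 2.95 ± 0.35 that held in every fit. Cacna2d2, an auxiliary subunit, lost its call without DIV0 replicate 1 or 2 or DIV28 replicate 1 or 3.

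Among 25 glutamate receptor genes 21 rose in tissue and 6 in culture, and the NMDA receptor subunit Grin2c was the only opposite one, with 8.9 to 13 at E10.5, 52.7 to 85 at P21, 115 and 120 at DIV0 and 0.0 to 5.1 at DIV28. Its call was lost without either DIV0 library, any E10.5 library, or P21 replicate 1 or 3. Of 20 GABA and glycine receptor genes 17 rose in tissue and 8 in culture, and Gabrb2 was opposite from E10.5 alone. Of 41 genes of synaptic vesicle release 26 rose in tissue and 15 in culture, and Syn3, a synapsin, was opposite (18.2-fold up, 2.26-fold down), a call lost in 8 of 13 fits without 1 library, all but those without E10.5 replicate 2 or 3, E13.5 replicate 1 or 2 or DIV28 replicate 3. None of the 10 sodium channel, 7 acetylcholine receptor or 21 neuropeptide genes was opposite. At the shares over all genes, 1.29% up in tissue and 1.91% down, lists of this size would hold few or none. Of the acetylcholine receptor genes 2 rose and 4 fell in tissue, and 1 rose and 3 fell in culture.

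A few regulators of identity were opposite, against 1.29% (up in tissue) and 1.91% (down) of all genes tested. The counts below do not show a lower share than that. Of 21 motor neuron selector factors 13 fell in tissue and 12 in culture, and Esrrg, an orphan receptor that marks gamma motor neurons, was opposite from E10.5 alone (33.3 to 98.9, then 214 to 286 in tissue, and 411 and 502, then 25.6 to 55.2 in culture). Isl1 fell in both systems, from between 671 and 996 to between 254 and 299 in tissue and from 2013 and 2102 to between 166 and 300 in culture, as did Mnx1. Nfia of the nuclear factor I family read 29.6 to 122 at E10.5, 691 and 940 at E13.5, 563 to 747 at P21, 771 and 921 at DIV0 and 98.3 to 140 at DIV28, so that it was opposite from E10.5 and did not pass the limits from E13.5. Of 30 Hox genes 21 fell in tissue and 12 in culture, and Hoxa7 and Hoxd9 were opposite from E10.5 alone. Hoxd9 had no count at DIV0 and was at least 9.34-fold higher at DIV28, against a floor of 3 counts over the DIV0 libraries. Of 21 genes of alpha motor neurons tested, 19 rose in tissue and 10 rose and 1 fell in culture, with a median culture change of 2.04, and Chodl alone was opposite, from E10.5. Chodl, a marker of fast motor neurons, read 13.3 to 73.8 at E10.5, 86 and 211 at E13.5, 526 to 699 at P21, 67.5 and 75 at DIV0 and 0 in all 3 DIV28 libraries, which is at least 112-fold lower than DIV0 by the same floor.

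Of the 38 functional lists, 28 held at least 1 opposite gene, and 91 of the 477 opposite genes were on a list, 17 of them up in tissue and 74 down. The share of all tested genes on a list was not counted, so these counts do not show whether opposite genes were more common there. Of 72 axon guidance genes 29 fell and 11 rose in tissue, and 28 fell and 5 rose in culture, against 28.7% and 9.71% of all genes that fell, with Ntng1 and Epha10 as the opposite members. None of 28 nuclear receptors, 33 trophic factor receptors or 52 splicing genes was opposite, where few or none would be at the shares over all genes of 1.29% and 1.91%.

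The genes of the classes also differed in kind. Of the 77 that rose in tissue and fell in culture, 48 (62.3%) were protein coding and 22 (28.6%) carried the annotation's label TEC, for unverified and mostly single-exon transcript models, against 7.40% TEC among all tested genes. Of the 205 of the other direction, 204 (99.5%) were protein coding. The coding members of the first class spanned a median of 91.0 kb from start to end and those of the second 12.7 kb, against 27.3 kb for all coding genes tested. Genes that rose in both systems had a median of 63.7 kb and those that fell in both 24.8 kb. Among the 912 tested genes over 200 kb, 4.61% were opposite upward in tissue and 0.439% downward, whereas among those of 5 to 10 kb the shares were 0.537% and 3.22%. The shares did not run one way with length, since among the 3085 genes under 5 kb they were 2.33% and 2.01%. Nuclear RNA holds much unspliced transcript, to which long introns contribute, and the part of this in the pattern was not tested.

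The other ages of the series (P4, P13, P56, 2 years and DIV7) placed each class in time. Their libraries took no part in the choice, but the E10.5 and DIV0 libraries from which the changes are measured did. A change in the called direction at these ages is therefore not independent of the choice. On the scale of normalised counts, the 77 genes stood at a median log2 change from E10.5 of 0.36 at E13.5, 1.78 at P4, 2.02 at P13, 2.61 at P21, 2.69 at P56 and 2.34 at 2 years, and 74 of them were over 2-fold up at 2 years. In culture they stood at -1.16 at DIV7 and -1.84 at DIV28. The 205 genes were at 0.35 at E13.5 and fell to -1.20 at P4, -1.15 at P13, -2.03 at P21, -2.21 at P56 and -1.96 at 2 years, with 1.08 at DIV7 and 1.63 at DIV28. At P4 61 of 77 and 130 of 205 genes were past 2-fold in the direction of P21, and at DIV7 47 and 113 were past it in the direction of DIV28. A change after E13.5 was part of the choice of both classes.

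A comparison within the nuclear libraries that were not used in the choice of genes, P56 minus P4, gave values in the same direction. In a fit of 25 libraries with 15521 genes, 872 (5.62%) rose and 1586 (10.2%) fell. Of the 77 genes 16 rose and 1 fell, with a median of 0.58, and 64 were higher at P56. Of the 205 genes 84 fell and none rose, with a median of -1.03, and 194 were lower at P56. The median over all genes was -0.003. The study reports less pure nuclei at P4, as at E13.5, than at P13 and later. Age and purity therefore cannot be told apart in P56 minus P4 either.

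Open chromatin near these genes was counted in the ATAC-seq libraries of the same stages, 2 per stage. Peaks present in both late and neither early library of a system were counted as gained, and the reverse as lost, when their summit lay within 50000 bp of a gene start. In culture, genes that fell there had a mean of 2.61 lost peaks per gene and those that rose 1.46, against 1.55 over all 14862 genes with a position. Gained peaks numbered 1.55 and 1.97 per gene, against 1.67. In tissue from E10.5 the genes that rose had 2.31 gained peaks and those that fell 1.27, against 1.49, and from E13.5 these were 1.70 and 1.01, against 1.19. Lost peaks in tissue numbered 1.01 and 1.04 per gene from E10.5, against 0.916, and 1.61 and 0.847 from E13.5, against 0.851, so that from E13.5 the genes that rose had more peaks of both kinds.

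**Figure D4:**
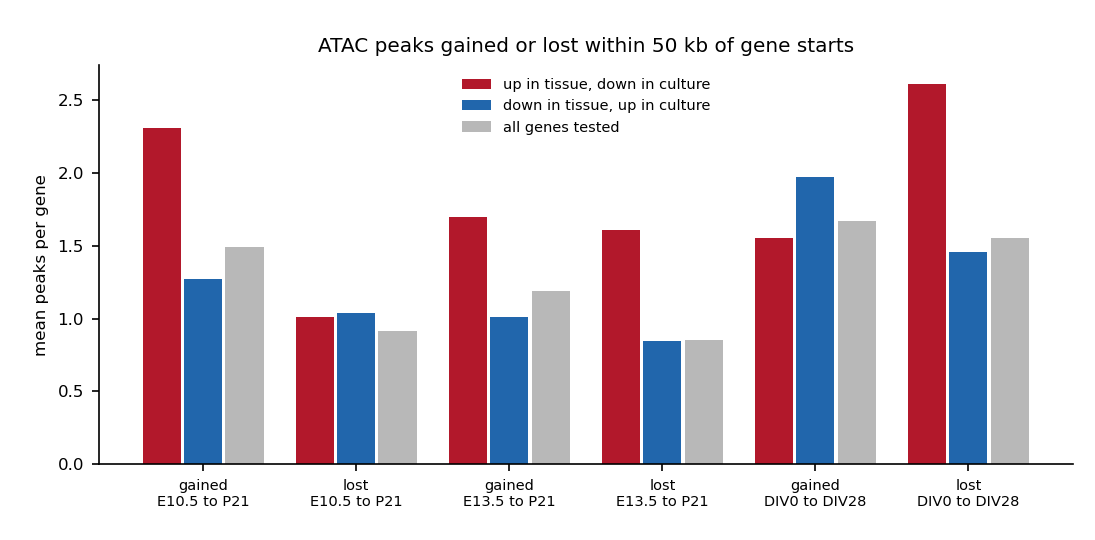
Mean number of ATAC peaks gained or lost per gene within 50000 bp of the gene start, for genes opposite in either direction from both starts and for all genes, in tissue and in culture; bars start at 0. The highest bar for lost peaks in culture, 2.61 per gene, is that of genes that rose in tissue and fell in culture.

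Some of the strongest of these peaks are shown because they lie near genes whose opposite changes are given above. Each is given as 201 bases of GRCm38 around the summit on the + strand, with the -log10 p called in replicate 1 of the stage that held it. The peak in an intron of Chat, chr14:32429279-32429479, 36610 bp after the gene start, was lost in culture (-log10 p 267.658), as was that in an intron of Adamts2, chr11:50622383-50622583 (192.342). Peaks outside genes at chr11:7237827-7238027, 24004 bp before the start of Igfbp3 (170.804), and at chr12:31218786-31218986, 46348 bp before that of Lamb1 (148.159), were gained. Capitals mark the AP-1 motif TGANTCA, which reads the same on both strands and was found in the gained pair and not in the lost pair.
Chat: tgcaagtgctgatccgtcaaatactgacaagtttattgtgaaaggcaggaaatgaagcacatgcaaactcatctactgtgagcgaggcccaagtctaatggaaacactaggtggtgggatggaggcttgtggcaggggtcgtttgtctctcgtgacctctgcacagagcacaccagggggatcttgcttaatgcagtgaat
Adamts2: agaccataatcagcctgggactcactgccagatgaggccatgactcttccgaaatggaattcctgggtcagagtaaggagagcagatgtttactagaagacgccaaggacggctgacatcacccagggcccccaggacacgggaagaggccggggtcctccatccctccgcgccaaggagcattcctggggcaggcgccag
Igfbp3: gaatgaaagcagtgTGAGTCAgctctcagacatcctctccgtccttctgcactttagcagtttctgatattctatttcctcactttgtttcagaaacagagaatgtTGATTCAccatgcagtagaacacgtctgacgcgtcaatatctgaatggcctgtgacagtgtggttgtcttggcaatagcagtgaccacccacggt
Lamb1: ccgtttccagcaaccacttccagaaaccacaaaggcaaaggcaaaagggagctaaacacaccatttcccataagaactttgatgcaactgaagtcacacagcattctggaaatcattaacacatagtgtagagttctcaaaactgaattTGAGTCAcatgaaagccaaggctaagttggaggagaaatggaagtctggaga

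The AP-1 motif was common in peaks gained in culture, near the opposite genes or not. Within 100 bp of the summit it was found in 67.4% of all 36265 gained peaks, in 65.7% of 388 near genes that rose in culture and in 66.7% of 117 near genes that fell there. Among peaks lost in culture the shares were 5.60% of all, 4.51% of 288 near genes that rose and 2.59% of 193 near genes that fell. By gene, Chat had 7 peaks lost and 2 gained in culture. In tissue it had 3 gained and 2 lost from E10.5, and 2 gained and 6 lost from E13.5, although its RNA rose. Lamb1 had 4 gained and none lost in culture, 1 gained and 2 lost from E10.5, and 1 gained and 4 lost from E13.5. Grb10 had 2 gained and 2 lost in culture and in tissue from E10.5, and Gpc5 none.

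The promoters of the respiratory chain and proteasome genes are shown because members of these lists moved together. In the 300 bases around the gene start that RefSeq gives for GRCm38.p6, the motif of nuclear respiratory factor 1 (GCGC, any base, then TGCGC, on either strand) was found in 5 of 17 opposite respiratory chain genes with a promoter entry and 4 of 8 opposite proteasome genes, against 16 of 65 and 6 of 28 of all tested genes of these lists. It was found in 28 of 157 genes that fell in tissue and rose in culture (17.8%), 5 of 38 of the other direction (13.2%), 1071 of 10179 tested genes and 4.78% of all 27025 promoters. The 250 bases before the start of Ndufa11 (chr17:56717512-56717761), Psma2 (chr13:14612992-14613241) and Psmc5 (chr11:106255935-106256184), all on the + strand, read as follows, with the motif in capitals.
Ndufa11: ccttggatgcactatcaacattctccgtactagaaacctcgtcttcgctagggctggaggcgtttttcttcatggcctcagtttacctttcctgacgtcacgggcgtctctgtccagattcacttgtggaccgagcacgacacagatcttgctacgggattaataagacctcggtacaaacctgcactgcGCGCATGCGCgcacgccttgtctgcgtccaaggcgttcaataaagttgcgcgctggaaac
Psma2: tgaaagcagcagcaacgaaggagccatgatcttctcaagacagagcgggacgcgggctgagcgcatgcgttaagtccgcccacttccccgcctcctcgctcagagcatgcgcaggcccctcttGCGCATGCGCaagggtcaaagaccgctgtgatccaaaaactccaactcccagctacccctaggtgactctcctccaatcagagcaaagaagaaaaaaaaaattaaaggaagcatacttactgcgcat
Psmc5: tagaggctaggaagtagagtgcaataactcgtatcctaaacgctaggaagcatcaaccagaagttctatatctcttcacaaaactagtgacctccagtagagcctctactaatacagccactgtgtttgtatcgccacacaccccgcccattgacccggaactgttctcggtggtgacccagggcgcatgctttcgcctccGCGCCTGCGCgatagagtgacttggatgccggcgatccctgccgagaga
A match in these letters is a description of the sequence and was not tested as a binding site.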

How the data were processed

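RNA-seq libraries were made with a stranded total RNA kit with ribosomal depletion. Per the submitters' processing notes and the study's methods, the authors trimmed reads with Trim Galore, aligned them to mm10 (GRCm38) with STAR 2.5.2b and deposited expected counts per gene from RSEM 1.3.0, without normalisation. For ATAC-seq the authors deposited MACS2 2.2.7.1 peaks called per library, with -log10 p as peak height, and the number of reads behind them is unknown. Between 80386 and 224328 intervals were listed per library.

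Here the expected counts were rounded to whole numbers. A gene was tested where all replicates of some group reached 5 CPM. One model of the 13 libraries with TMM factors and 1 coefficient per group (8 residual degrees of freedom) was then fitted with edgeR 4.0.16 in R 4.3.3. Tests are edgeR's two-sided quasi-likelihood tests, and adjusted p-values are Benjamini-Hochberg values over all genes. SE is the log2 change over the square root of F. The limits of 2-fold and p under 0.001 are those of the study. Opposite from both starts means that P21 minus E13.5 also passed the limits and that the difference from E13.5 passed an adjusted p of 0.05. Normalised counts are rounded counts over median-of-ratios size factors. A group without a count was set to a floor of 3 counts over its libraries, and floors and exact 95% intervals cover counting error only; fitted changes of genes with 1 to 3 counts in a group depend on edgeR's prior count. Gene positions were matched to GENCODE M21 for 55144 of 55385 genes.

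ATAC peaks were the 80000 highest of each library by -log10 p, shared at an overlap of at least 1 bp. The comparison of P56 with P4, the motif counts and the gene spans were added after the data had been seen.

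The genes and lists were chosen with earlier results of these data known. Genes named are, per direction, the 12 with the largest smaller change among those opposite from both starts with libraries apart and a mean of at least 50 normalised counts (leaving out Gm, Rik and pseudogene symbols), up to 3 opposite genes per functional list and direction by size of the difference, 5 cell type genes and the highest gene of each marker list. Some genes that this rule names are not reported here. Alternatives were median-of-ratios scaling, no filter, DESeq2 1.42.0, a fit of 25 libraries, a replicate block, adjusted limits, counts without mitochondrial genes and Gm26917, E13.5 as the start, each library left out, and other peak numbers and distances. The fit was tested on simulated data. The libraries grown with TTX were not used here. Tables were made in Python 3.11.15 with numpy 2.4.6, pandas 2.3.3 and scipy 1.17.1.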

Additional observations from a re-analysis of the deposited data

Results flagged for a closer look

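These results are listed because the change in tissue and the change in culture differed by a test of the difference itself, edgeR's quasi-likelihood test of the interaction. From E10.5, 192 genes rose in tissue and fell in culture and 285 did the reverse, and with E13.5 as a further start these were 77 and 205.

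Among the leading genes that rose in tissue and fell in culture, the difference of changes (tissue minus culture, log2) was 10.65 for Gpc5, 8.79 for Adamts2, 8.35 for Ntng1, 8.16 for Sorcs1, 8.14 for Kirrel3, 8.12 for Pcdh9, 6.78 for Mbp, 5.09 for Dpyd, 4.84 for Chat, 4.70 for Epha10 and 4.41 for Zbtb20. Among those that fell in tissue and rose in culture it was -11.74 for Ccn1, -11.21 for Sdc1, -10.85 for Id1, -10.63 for Zic2, -10.60 for Ccnd1, -10.52 for Tgif1, -10.45 for Grb10, -10.25 for Lamb1, -9.52 for Cdk6, -9.21 for Igfbp3, -8.32 for Tubb6 and -7.18 for Ezr. In all 23 genes the libraries of start and end did not overlap in either system, which was a condition of their choice. The differences of Gpc5, Zic2, Ccn1, Igfbp3, Sdc1 and Tgif1 rest on 1 to 3 counts in a group of the tissue or culture comparison, so that their size depends on the prior count.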

How the results depend on the processing

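The counts of opposite genes depended on the filter, the limits and the libraries. From E10.5 the 192 genes up in tissue and down in culture became 355 with no filter on low counts, 302 with DESeq2, 332 in a fit of the 25 libraries without TTX and 488 with an adjusted p of 0.05 for each change, and lay between 106 and 233 when a library was left out. The 285 genes of the other direction became 536 with no filter, 623 with adjusted limits and 439 with E13.5 as the start, and lay between 116 and 398. From both starts the 77 genes became 151, 153, 152 and 287 under no filter, DESeq2, 25 libraries and adjusted limits and lay between 41 and 104, and the 205 genes became 430 with no filter and 493 with adjusted limits and lay between 82 and 307. The lowest counts came from leaving out DIV0 replicate 1 (106, 116 and 82) and E13.5 replicate 2 (41). Counts also moved over 1.5 times without DIV0 replicate 2 (109 and 130 from E10.5, 44 and 89 from both starts), P21 replicate 1 or 2 (49 against 77) and DIV28 replicate 2 (129 against 205). A lone DIV0 library is assumed in these fits to vary like the other groups. Other scalings moved the median difference over all genes from -0.10 to 0.06 (median-of-ratios) and 0.09 (DESeq2). The cause of the other moves was not tested.

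Of 70 opposite genes chosen by the rule, none changed sign in 1330 values under alternatives, 143 of which lost the call (from E10.5, or from E13.5 where that was the start). Of the 54 opposite from both starts, 24 kept that call after each library was left out. Leaving out DIV0 replicate 1 or 2 cost 26 and 24 calls, DIV28 replicate 2 cost 12, and E13.5 as the start cost 16. Of the medians of 16 lists, 298 of 304 kept their sign, and the rest were those of axon guidance, whose median difference of -0.09 became 0.074 with median-of-ratios scaling, 0.068 with DESeq2 and 0.41 with E13.5 as the start and lay between -0.264 and 0.208 without 1 library.

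Replicate numbers did not pair the libraries: deviations of 23 same-numbered pairs correlated between -0.245 and 0.15. A fit with the replicate number as a block gave 149 and 267 genes from E10.5 and 57 and 187 from both starts.

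Peak shares moved with the distance and the number of peaks. Genes up in tissue with a peak gained there from E10.5 went from 74% to 36.4% within 10000 bp. Over all genes tested these shares were 69.9% and 19.2%. Genes up in tissue with a peak lost in culture went from 77.9% to 28.6%, against 65.9% and 21.7% of all genes. Genes down in tissue with a peak lost there went from 50% to 38.6% with 40000 peaks per library and 18.3% within 10000 bp. These were near the shares over all genes, 49.9%, 36.8% and 15.6%. Genes down in tissue with a peak gained in culture went from 81.7% to 61.4% and 27.7%, against 78.5%, 51.9% and 22.8% of all genes.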

Other observations

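The genes in this section were chosen after their values were seen, from the opposite genes outside the functional lists. Adjusted p-values are those of the difference of changes by edgeR's quasi-likelihood test. Txn1, Gpx1 and Ubb fell in tissue and rose in culture. Txn1, thioredoxin, read 349 to 404 normalised counts at E10.5, 261 and 361 at E13.5, 19.1 to 22 at P21, 35.2 and 43.6 at DIV0 and 118 to 239 at DIV28. Gpx1, glutathione peroxidase, read 495 to 573, 329 and 465, 16 to 20.5, 29.6 and 35.2, and 88.7 to 164. In both genes the P21 libraries were the lowest of all, with adjusted p-values from edgeR of 2.89e-07 and 1.46e-07. Ubb, a gene of polyubiquitin, read 5326 to 6871 at E10.5, 9079 and 16297 at E13.5, 722 to 829 at P21, 630 and 806 at DIV0 and 1426 to 3863 at DIV28 (edgeR's adjusted p = 3.7e-06). Vdac1, a pore of the outer mitochondrial membrane, and Slc25a4, which carries ADP and ATP across the inner one, had differences of changes of -3.63 ± 0.33 and -3.27 ± 0.34 (log2 ± SE, edgeR's adjusted p = 1.09e-06 and 2.94e-06), and Tuba1b, an alpha-tubulin, -7.22 ± 0.42 (1.15e-07). Ubb and Tuba1b have close copies in the genome, between which counting could split reads.

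Ryr3, a calcium release channel of the endoplasmic reticulum, rose in tissue from between 11.4 and 23.7 at E10.5 and 195 and 374 at E13.5 to between 4813 and 5216 at P21, and fell in culture from 327 and 450 to between 70.9 and 163. Its difference of changes was 9.94 ± 0.55 (edgeR's adjusted p = 1.15e-07). Abcc8, the sulfonylurea receptor of potassium channels gated by ATP, read 33.3 to 66.5 at E10.5, 279 to 396 at P21, 344 and 408 at DIV0 and 48.2 to 146 at DIV28 (edgeR's adjusted p = 8.95e-06). Cbx7, a Polycomb protein, read 17.8 to 20.5, 174 to 197, 546 and 636, and 146 to 187 at the same stages, so that DIV28 overlapped P21 (edgeR's adjusted p = 4.33e-07).

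Wnt4, En1, Fst and Dab1 passed the limits from E10.5 and not from E13.5. Wnt4, a secreted signal, read 54.3 to 80.2 at E10.5, 17.5 and 18.8 at E13.5, 3.2 to 11 at P21, 1.5 and 3.5 at DIV0, and 233 to 456 at DIV28, above the embryo (edgeR's adjusted p = 2.57e-07). En1, a homeobox factor of V1 interneurons, read 28.9 to 167, 7.8 and 8.8, 0.0 to 4.8, no count at DIV0, and 54.4 to 86.7 (edgeR's adjusted p = 8.95e-06). Fst, follistatin, read 35.7 to 106 at E10.5 and 146 to 449 at DIV28 (edgeR's adjusted p = 2.05e-06). In the other direction Dab1, of the reelin pathway, read 50.4 to 250 at E10.5, 154 and 388 at E13.5, 792 to 917 at P21, 567 and 1078 at DIV0 and 44.7 to 120 at DIV28 (edgeR's adjusted p = 1.93e-05).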
